A study of Mus musculus with 32 samples.

Results

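The proteasome is the protease complex that degrades ubiquitin-tagged proteins, and 36 genes for its subunits and activators were followed here through mouse oocytes, early embryos and embryonic stem cells. The members were all gene rows whose Ensembl identifier, taken without its version, carried one of 36 listed symbols in the mouse annotation of the mm10 build: 7 alpha-ring genes (Psma1 to Psma7), 7 beta-ring genes (Psmb1 to Psmb7), 6 ATPases of the regulatory particle (Psmc1 to Psmc6), 12 non-ATPase subunits (11 Psmd genes and Adrm1) and 4 activators (Psme1 to Psme4). All 36 were found among 55335 gene rows. The study sequenced RNA from 16 groups with 2 libraries each, 32 in all. Growing oocytes were taken at P14, postnatal day 14, and carried an H3.3WT or an H3.3K4M transgene, that is, histone H3.3 in its normal form or with lysine 4 replaced by methionine; the sources used here do not name the promoter of the transgene. MII oocytes, arrested in metaphase of the second meiotic division and ready for fertilization, came from wild-type females of 8 weeks or 12 months. Wild-type 2-cell embryos came from untreated 12-month females, or from females of 6 to 8 weeks with the embryos cultured in the vehicle DMSO, in aphidicolin (APH, an inhibitor of DNA replication), in cycloheximide (CHX, an inhibitor of translation) or in MG132, a peptide aldehyde that blocks the proteasome. The 4-cell embryos were wild type, from females of 6 to 8 weeks, and were cultured in DMSO, aphidicolin, cycloheximide or MG132. Embryonic stem cells were of the wild-type line AB2.2, a single line, and received DMSO, cycloheximide or MG132. The sources used here give neither doses nor hours of exposure, nor the number of oocytes or embryos pooled in a library. Oocytes and embryos were prepared with Smart-Seq2, a low-input method, and stem cells with poly(A) capture and a standard kit, so the preparation changed together with the cell system.

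The core particle of the proteasome is a barrel of stacked rings, with alpha subunits forming the gated outer rings and beta subunits the inner ones. Only a few beta subunits cut peptides: Psmb5 encodes the chymotrypsin-like subunit, the main target of MG132, Psmb6 the caspase-like and Psmb7 the trypsin-like subunit. A regulatory particle caps the barrel; its ATPases unfold the substrate, Psmd4 and Adrm1 encode ubiquitin receptors, and Psmd14 encodes the enzyme that removes the ubiquitin chain. Psme1 and Psme2 encode subunits of an interferon-inducible cap, Psme3 a nuclear relative of it, and Psme4 a large activator known for its role in the germ line. In many cell lines proteasome inhibition raises the subunit genes together through the transcription factor NRF1 (gene Nfe2l1), which binds antioxidant response elements. After fertilization the maternal RNA of the oocyte is degraded while the embryo's own genome is switched on, and degradation of maternal proteins by the proteasome belongs to that handover.

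Libraries held 14313718 to 34713159 counts, of which 2.93 to 33.1% lay on repeats and 11706668 to 29500029 on genes, and the 36 members received 40396 to 358753 counts a library. The 8 oocyte markers summed to 44015 to 48132 gene CPM (counts scaled to the same total of gene counts in every library) in growing oocytes, 11743 to 12914 in MII oocytes, 5430 to 12117 in 2-cell embryos and 120 to 390 in 4-cell embryos. They summed to 7.68 to 10.8 in stem cells, where the 8 stem cell markers summed to 4814 to 5862. This second sum was not particular to stem cells. The same 8 genes summed to 8353 to 9035 in growing oocytes and to 5204 to 8625 in 4-cell embryos with DMSO or aphidicolin. The 6 markers of the 2-cell embryo summed to 921 and 1333 in 2-cell embryos with DMSO, to 490 and 551 in those of 12-month females and to 99.7 and 244 with aphidicolin. They summed to 59.5 and 83.4 with MG132, where Tdpoz4 was at 0, and to 11 and 31.4 with cycloheximide, where Tdpoz4 and Usp17lc were at 0, against 46.9 and 41.1 in MII oocytes of 8 weeks. The drug-treated libraries labelled 2-cell thus carried few counts of the genes that define that stage. The labels do not tie the libraries of a group to separate cultures or animals, and every p-value here therefore reflects spread among these libraries alone, which may be technical. All levels are shares of a library, the RNA content of an embryo was not measured, and in such bulk samples fewer cells of a type and less RNA per cell cannot be told apart.

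The members took 0.241 and 0.294% of gene counts in 2-cell embryos with DMSO and 0.226 and 0.284% in 2-cell embryos of 12-month females, the lowest shares of the 16 groups. Aphidicolin 2-cell embryos stood at 0.345 and 0.347%, MII oocytes of both ages at 0.548 to 0.562%, stem cells at 0.629 to 0.748% and growing oocytes at 0.817 to 0.909%. The 4-cell embryos with DMSO (1.11 and 1.18%) and with aphidicolin (1.10 and 1.22%) held the highest shares and overlapped each other. With MG132 the share was 0.534 and 0.595% in 2-cell embryos and 0.533 and 0.582% in 4-cell embryos, and with cycloheximide it was 0.532 and 0.494% and then 0.553 and 0.569%. The 2-cell libraries with MG132 or cycloheximide were therefore above their vehicle. The 4-cell libraries with these 2 drugs were below theirs, in both stages with no overlap. In 2-cell embryos Psma7 alone made up 50.4 and 43.5% of member counts with cycloheximide, 26.2 and 15.6% with MG132 and 5.90 and 6.51% with DMSO. The summed share with cycloheximide thus rests largely on that gene and does not show a rise of the whole set. The ranges of both MG132 groups, of 4-cell embryos with cycloheximide and of the MII oocytes overlapped one another in this summed share, and 2-cell embryos with cycloheximide lay just below them.

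**Figure D1:**
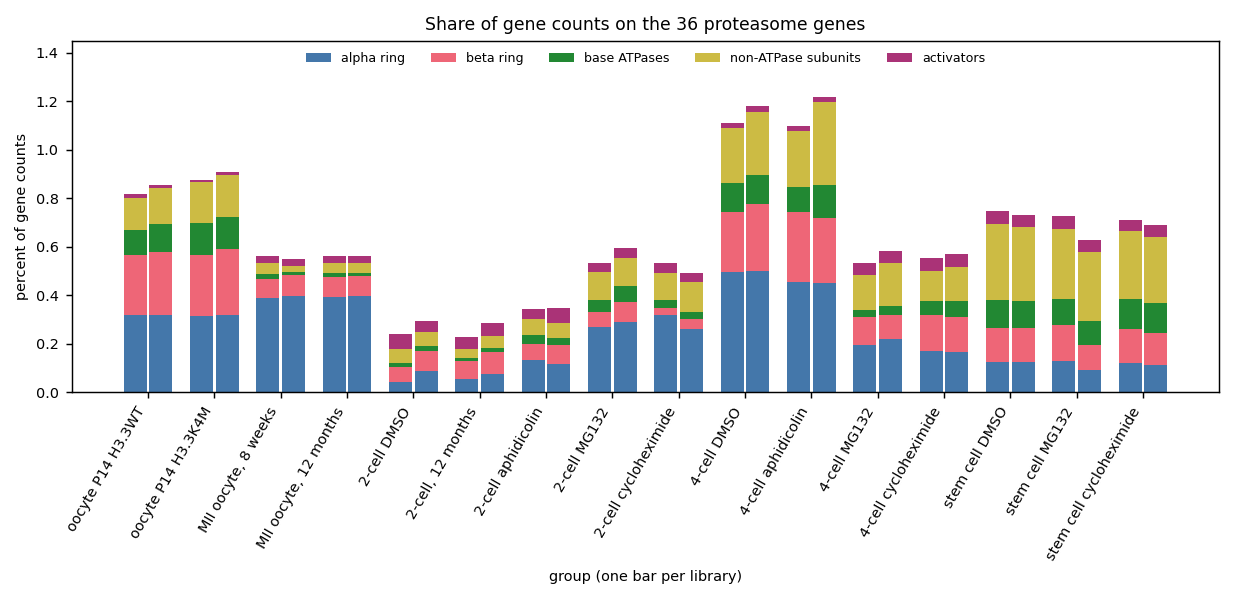
Share of gene counts on the 36 proteasome genes, in percent, 1 bar per library (2 per group), stacked by role. Bars of 2-cell embryos with DMSO reach 0.241 and 0.294% and bars of 4-cell embryos with DMSO 1.11 and 1.18%, while all 8 bars of embryos with MG132 or cycloheximide lie between 0.494 and 0.595%.

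The composition of that share differed between cell systems. In MII oocytes 2 alpha-ring genes, Psma2 and Psma7, made up 55.5 to 58.7% of all member counts, against 4.63 to 5.598% in stem cells. The same pair made up 12.0 and 19.1% in 2-cell embryos with DMSO, 39.7 and 34.4% with MG132 and 53.5 and 47.9% with cycloheximide. In 4-cell embryos the range was 4.68 to 10.5% over the 4 treatments. Between-gene spread was read per kilobase of exon over the 32 subunits, activators left out. The upper quartile of these levels was 2.10 to 2.45 times the lower one in stem cells, 3.99 to 5.32 times in growing oocytes, 2.97 to 5.48 times in 4-cell embryos, 3.42 to 9.82 times in 2-cell embryos and 8.85 to 22.1 times in MII oocytes. Subunits that are built into the complex in equal numbers thus had the most even levels by this measure in stem cells. Their least even levels were in MII oocytes of 8 weeks (15.6 and 22.1 times). The lengths are those of all annotated exons of a gene, not of the transcripts present. Library preparation changed together with the cell system, so its part in this spread cannot be told apart. The second cycloheximide library of 2-cell embryos, at 9.82, was less even than the MII oocytes of 12 months (8.85 and 9.39). At the low end, Psmb5 had 0 to 95 counts in any MII or 2-cell library and 782 to 3326 in any 4-cell library, and the lid subunit gene Psmd13 had 2 to 41 and 174 to 801 counts.

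**Figure D2:**
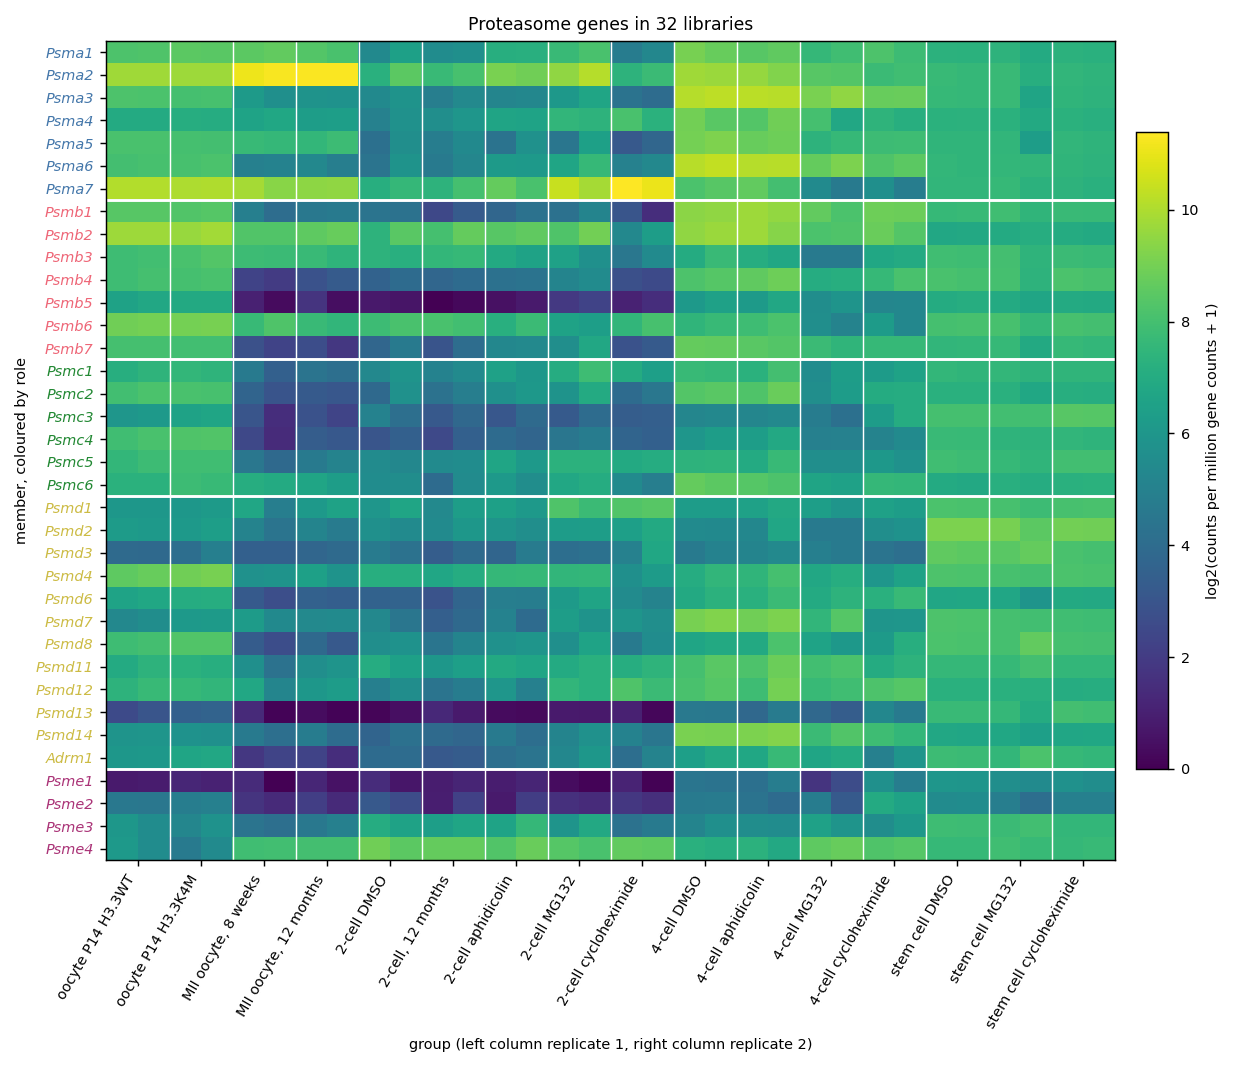
Level of each of the 36 members (rows, grouped and coloured by role) in each of the 32 libraries (columns, replicates 1 and 2 side by side), as log2 of gene CPM plus 1. Psma2 and Psma7 are the brightest rows in MII oocytes, Psmb5 and Psmd13 are dark from the MII oocyte to the 2-cell embryo, and the stem cell columns are the most even.

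RefSeq start sites of build GRCm38.p6 were available for 30 of the 36 members, and the window from 250 bases before to 50 after the start was searched on both strands for the core of the antioxidant response element, TGACNNNGC, and for the CCAAT box. The element core matched in 6 of the 30 genes (Psmb5, Psmb6, Psmc6, Psmd12, Adrm1 and Psme4), or 20%, against 12.4% of 32841 promoters, and CCAAT matched in 12, or 40%, against 37.4%. Members were counted per gene, with a match in any window, and the background per promoter. Psma6, Psmc2 and Psme2 have 2 windows each, so the shares are not on one unit. The 40 and 37.4% of CCAAT can therefore not be ranked. The 250 bases before the start are printed here for 4 members that the results turn on. They include Psma7, at chr2:180042465-180042714 on the minus strand, and Psmd12, at chr11:107479278-107479527 on the plus strand. Both stood far above vehicle in 2-cell embryos with MG132 or cycloheximide. The others are Psmb6, at chr11:70525107-70525356 on the plus strand, which did not follow them; and Psmb5, at chr14:54617996-54618245 on the minus strand, the gene of the subunit that MG132 blocks. Each runs 5′ to 3′ along the gene's strand, with matches to the element core in capitals.
Psma7: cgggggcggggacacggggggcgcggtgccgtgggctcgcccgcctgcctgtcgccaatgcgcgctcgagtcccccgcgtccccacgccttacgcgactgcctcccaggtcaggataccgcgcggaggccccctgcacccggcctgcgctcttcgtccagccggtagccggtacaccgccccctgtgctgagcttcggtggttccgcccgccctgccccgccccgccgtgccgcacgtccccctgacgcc
Psmd12: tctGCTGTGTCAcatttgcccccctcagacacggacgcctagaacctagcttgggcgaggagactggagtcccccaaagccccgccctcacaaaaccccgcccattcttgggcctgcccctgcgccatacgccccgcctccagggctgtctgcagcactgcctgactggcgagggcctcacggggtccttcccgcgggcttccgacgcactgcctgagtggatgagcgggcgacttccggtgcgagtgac
Psmb6: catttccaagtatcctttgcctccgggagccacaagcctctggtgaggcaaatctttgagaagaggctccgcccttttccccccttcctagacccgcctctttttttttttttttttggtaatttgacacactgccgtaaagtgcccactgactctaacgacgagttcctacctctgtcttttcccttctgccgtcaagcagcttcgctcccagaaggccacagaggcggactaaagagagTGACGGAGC
Psmb5: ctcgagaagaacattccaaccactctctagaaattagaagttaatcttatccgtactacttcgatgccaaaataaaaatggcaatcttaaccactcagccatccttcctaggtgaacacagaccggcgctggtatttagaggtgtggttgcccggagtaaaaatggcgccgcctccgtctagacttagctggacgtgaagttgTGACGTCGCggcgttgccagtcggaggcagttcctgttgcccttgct

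The match starts at position -247 in Psmd12, on the opposite strand, at -9 in Psmb6 and at -47 in Psmb5, and these letters are not in the Psma7 window. A match is a description of letters, and no binding was measured.

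From the MII oocyte of 8 weeks to the vehicle 2-cell embryo the alpha ring fell: 6 of its 7 genes were lower, and over all members 14 were lower and 2 higher by edgeR (quasi-likelihood test, Benjamini-Hochberg adjusted p under 0.05), the rule for every call below. Of all genes tested, 10.1% were called higher and 10.1% lower here. The median log2 fold change was -0.58 for the members and 0.33 for all genes. Values below are CPM, in which edgeR's TMM normalization puts all libraries of a fit on one total. Psma2 stood at 2459 and 3262 CPM in oocytes and at 84.2 and 218 in 2-cell embryos (log2 fold change -4.24 ± 0.43 SE, edgeR adjusted p = 0.0002), and Psma7 at 1027 and 850 and then at 81.5 and 113 (-3.27 ± 0.29, adjusted p = 0.000104). Both genes were far lower in either 2-cell library than in either oocyte library, and 60% of all genes tested did not overlap. Psma5 (-3.64 ± 0.45), Psma1 (-3.63 ± 0.38) and the ATPase gene Psmc6 (-2.53 ± 0.41) followed in size. Psmd8, a small lid subunit gene, was at 9.91 and 7.03 CPM in oocytes and 28.0 and 32.7 in embryos (1.84 ± 0.37), and Psme3 at 22.6 and 22.1 and then 75.1 and 56.1 (1.55 ± 0.31); these were the 2 members that rose. Psma3 (-1.38), Psmd14 (-1.51) and Psmb6 (-1.10) fell, and Psme4 (-0.22) was not called. With library sizes from gene counts alone the split was 4 higher and 11 lower, as the median of all genes then moved by 0.28.

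In 12-month females the same step gave 12 members lower and 1 higher, with 6 of the 7 alpha-ring genes lower, against 5.8% of all genes called higher and 6.76% lower. The step had medians of -0.76 for the members and 0.19 for all genes. Psma2 went from 2812 and 2987 CPM to 166 and 186 (-4.04 ± 0.43, edgeR adjusted p = 0.000355), Psma1 from 361 and 323 to 36.1 and 34.1 (-3.29 ± 0.37) and Psma5 from 203 and 262 to 21.7 and 28.2 (-3.22 ± 0.44). None of these values overlapped between the stages, as held for 60.5% of all genes tested. Psmb1 followed (-2.49 ± 0.34). Psmb5 (-4.43 ± 1.13, with 61 and 9 counts in oocytes and 0 and 4 in embryos) lost its call without the 12-month 2-cell replicate 1 or the MII replicate 1, and Psme3, the member that rose (1.17 ± 0.30), lost it when any of the 4 libraries was left out. The count of called members was lower without that 2-cell library and without that MII library, as were the calls over all genes.

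Between the vehicle 2-cell and 4-cell embryo nearly the whole complex rose: 27 members were higher and 2 lower, beside 19.6% of all genes called higher and 29.4% lower. The median log2 fold change was 3.27 for the members against -0.57 for all genes. All 7 alpha-ring genes, 5 of 7 beta-ring genes, 5 of 6 ATPases, 8 of 12 non-ATPase subunits and 2 of 4 activators were among the 27. Psmb5 went from 0.401 and 0.328 CPM (16 and 12 counts) to 57.7 and 68.4 (7.42 ± 1.04, edgeR adjusted p = 0.000242). Psmd13 went from 3 and 8 counts, or 0.0752 and 0.219 CPM, to 19.0 and 17.0 CPM (6.91 ± 1.28, adjusted p = 0.00141), so the size of both changes rests on few 2-cell counts. Changes from better-filled levels were Psmd14 from 6.72 and 10.5 to 455 and 409 CPM (5.65 ± 0.41), Psmb1 from 11.5 and 11 to 559 and 549 (5.62 ± 0.38) and Psma6 from 11.3 and 33.9 to 952 and 977 (5.42 ± 0.52). In each of these 5 genes both 4-cell values lay far above both 2-cell values. The 2 groups did not overlap in 77% of all genes tested. Among the other catalytic and index members, Psmb7 rose by 4.89 ± 0.54, Psma3 by 5.0 ± 0.31, Psmc1 by 2.44 ± 0.39 and Psmd11 by 1.94 ± 0.40. Psmb6 was at 129 and 162 CPM and then 141 and 156 (0.03 ± 0.30, edgeR adjusted p = 0.955), overlapping between the stages. Psmd4 (0.61 ± 0.28, adjusted p = 0.0955) was not called either. The activators split. Psme1 (4.55 ± 1.33) and Psme2 (2.35 ± 0.64) rose. Psme4, from 281 and 215 to 122 and 103 CPM (-1.14 ± 0.25), and Psme3, from 75.1 and 56.1 to 28.4 and 37.8 CPM (-0.99 ± 0.30), fell. Leaving out any single library kept 25 of the 29 calls; Psmd8, Psme1, Psme2 and Psme3 were the exceptions.

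**Figure D3:**
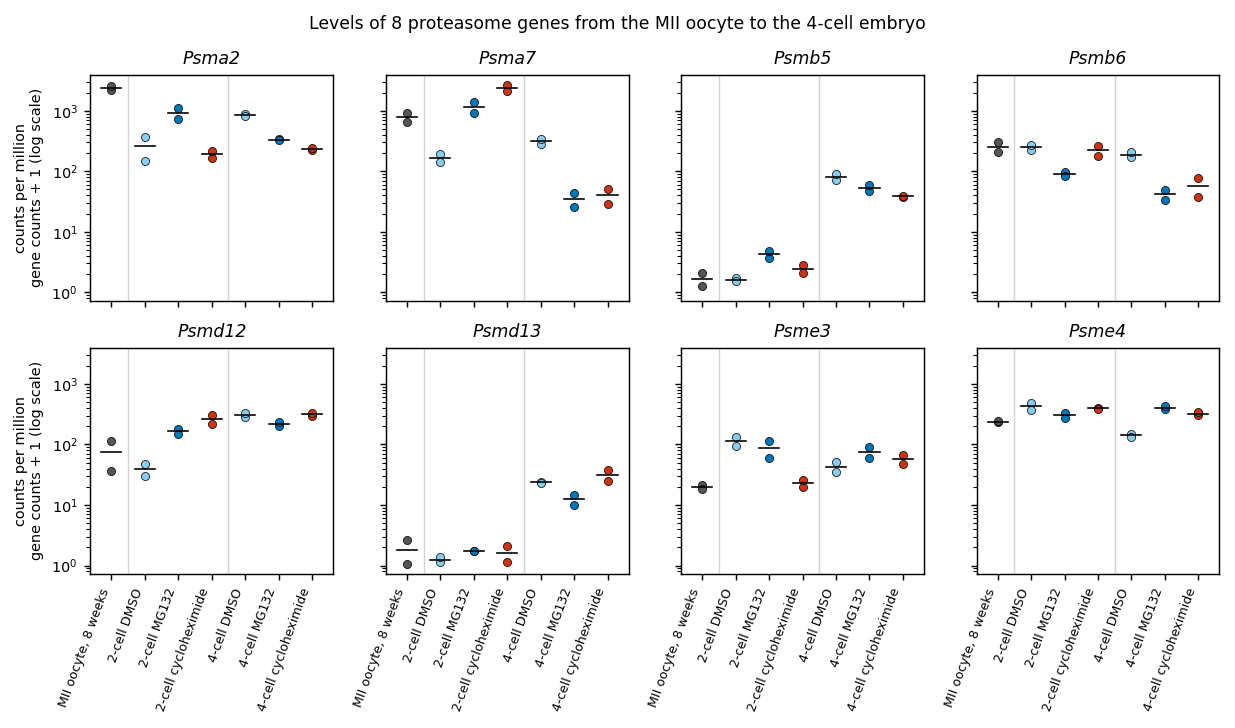
Level of 8 members in MII oocytes of 8 weeks and in 2-cell and 4-cell embryos with DMSO, MG132 or cycloheximide, as gene CPM plus 1 on a log axis; points are libraries (2 per group) and lines their mean. Psma7 is above its vehicle points in both drug-treated 2-cell groups and below them in both drug-treated 4-cell groups, and Psmb5 and Psmd13 lie near the floor until the 4-cell stage.

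In 2-cell embryos MG132 was accompanied by higher RNA for much of the complex: 14 members were higher and 1 lower than with DMSO, when 5.1% of all genes were called higher and 4.68% lower. The median log2 fold change was 1.38 for the members and -0.07 for all genes. The 14 comprised 5 of 7 alpha-ring genes, 2 of 7 beta-ring genes, 2 of 6 ATPases and 5 of 12 non-ATPase subunits. The lid subunit gene Psmd6 stood at 7.95 and 8.56 CPM with DMSO and at 55.1 and 70.2 with MG132 (log2 fold change 2.92 ± 0.37, edgeR adjusted p = 0.000904). Psma7 stood at 103 and 143 and at 1053 and 662 CPM (2.80 ± 0.37, adjusted p = 0.00108). Both MG132 libraries were several-fold above both vehicle libraries in these genes. Psmd12, another lid subunit gene, went from 21.4 and 34.9 to 136 and 107 CPM (2.11 ± 0.41), Psma4 from 22.5 and 40.3 to 134 and 118 (2.00 ± 0.37) and Psmb7 from 9.06 and 18.4 to 36.8 and 79.5 (2.08 ± 0.51), each without overlap, as were 54.8% of all genes tested. Psmc1 (1.86 ± 0.37) and Psmd14 (1.55 ± 0.41) were also higher. Psmb6 was the member that fell, from 163 and 205 to 71.4 and 59.7 CPM (-1.49 ± 0.32, edgeR adjusted p = 0.0135). Psmb5, the gene of the inhibited subunit, had 16 and 12 counts with DMSO and 35 and 95 with MG132 (2.37 ± 1.11, adjusted p = 0.211), a difference these counts did not resolve. Psma3 (0.78 ± 0.33), Psmd4 (0.40 ± 0.28) and Psmd11 (0.30 ± 0.29) were not called, nor were the activators, whose differences ran from -2.58 to -0.39.

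The count rested partly on single libraries: it was lower without MG132 replicate 2 and without DMSO replicate 1, as were the calls over all genes. The 4 members Psma4, Psma7, Psmc5 and Psmd6 kept their call whichever library was left out. MG132 replicate 1 was the shallower of the pair, with 12989157 gene counts against 24338232. With the replicate number as a block, Psmc2, Psmc4 and Psmd7 were also higher (edgeR adjusted p = 0.0309, 0.0441 and 0.046). Beside these changes the 2-cell markers were low in both MG132 libraries, as given above, and the oocyte markers summed to 8623 and 7143 gene CPM against 5430 and 5862 with DMSO. Their part in the result was not tested. Of the members named, Psmb7 shares 405 exon bases with Nek6 and Psma4 shares 114 with AY074887, both on the opposite strand, and Psmd1 shares 301 with Gm21972 and 252 with Htr2b. The counting is not stated to use strand, so reads in those bases cannot be assigned with certainty.

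Cycloheximide in 2-cell embryos raised mainly genes of the regulatory particle: 13 members were higher and 3 lower than with DMSO, beside 11% of all genes called higher and 13% lower. The medians were 0.41 for the members and -0.26 for all genes. Of the 13, 9 were non-ATPase subunits (of 12), 2 alpha-ring genes and 2 ATPases, and the 3 lower ones were Psmb2, Psmb3 and Psme3. Psma7 reached 2948 and 2328 CPM against 103 and 143 with DMSO (log2 fold change 4.42 ± 0.40, edgeR adjusted p = 7.33e-05), the largest difference of any member in this comparison. In gene CPM that was 2683 and 2147, beside 916 and 656 in MII oocytes of 8 weeks, a pair of groups not tested against each other. Psmd12 stood at 337 and 234 CPM against 21.4 and 34.9 (3.34 ± 0.43), Psma4 at 301 and 165 against 22.5 and 40.3 (2.89 ± 0.38), and the scaffold subunit gene Psmd1 at 347 and 372 against 45.0 and 77.5 (2.55 ± 0.38). Psmd6 stood at 49.0 and 35.6 against 7.95 and 8.56 (2.36 ± 0.36); none of these 5 genes overlapped between the groups, and neither did 58.8% of all genes tested. Psmc1 (1.68 ± 0.37), Psmd14 (1.42 ± 0.41) and Psmd11 (1.04 ± 0.30) were higher as well. Psme3 fell from 95.2 and 70.9 to 20.4 and 26.9 CPM (-1.81 ± 0.40, adjusted p = 0.00749 in edgeR), Psmb3 from 118 and 109 to 23.9 and 46.7 (-1.69 ± 0.39) and Psmb2 from 118 and 265 to 42.6 and 86.9 (-1.56 ± 0.45). The catalytic genes Psmb5 (1.77 ± 1.10), Psmb6 (0.40 ± 0.32) and Psmb7 (-0.79 ± 0.49) were not called. Psma3 (-0.95 ± 0.33, edgeR adjusted p = 0.0596) lay close to the threshold: its adjusted p was 0.0499 with the replicate block and 0.0124 with DESeq2, and over all alternatives it ran from 0.0124 to 0.296. Whichever library was left out, 8 members kept their call: Psma4, Psma7, Psmc5, Psmd1, Psmd2, Psmd6, Psmd12 and Psme3. The 2-cell markers were lower still than with MG132, the oocyte markers summed to 7150 and 12117 gene CPM, and their part was not tested.

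Set against each other in the same stage, cycloheximide and MG132 embryos differed in 10 members, 3 higher and 7 lower with cycloheximide, against 4.09% of all genes called higher and 5.41% lower. The medians were -0.49 for the members and -0.01 for all genes. The core barrel carried most of the difference: Psma1, Psma2, Psma3, Psmb2, Psmb4 and Psmb7 were lower with cycloheximide, as was Psme3, and Psma7, Psmb6 and Psmd3 were higher. Psmb7 stood at 6.85 and 9.01 CPM with cycloheximide and 36.8 and 79.5 with MG132 (log2 difference -2.88 ± 0.52, edgeR adjusted p = 0.00834), and Psma1 at 29.5 and 40.9 and at 159 and 200 (-2.35 ± 0.38, adjusted p = 0.00504). Psmb6 stood at 199 and 288 with cycloheximide and at 71.4 and 59.7 with MG132 (1.89 ± 0.33), so the caspase-like subunit gene differed from Psmb7 in direction. The lid subunit gene Psmd3 had the largest positive value (2.6 ± 0.55), from cycloheximide values of 34.4 and 117 CPM that lay far apart. With only the libraries of these 2 groups in the edgeR fit, no member and none of the 16874 genes tested were called. Without MG132 replicate 2 only Psma1 and Psmb4 kept a call, and calls over all genes were fewer too. The number of called members was 19 with DESeq2, beside 8.21% of all genes called higher and 8.71% lower. It was 15 with the replicate block (5.69% and 6.8%), which added Psma5, Psma6, Psmc2, Psmd4 and Psme4.

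In 4-cell embryos MG132 went with the opposite sign: 21 members were lower than with DMSO and 1, Psme4, higher, beside 4.33% of all genes called lower and 3.06% higher. The medians were -1.30 for the members and 0.00 for all genes. All 7 alpha-ring genes, 6 of 7 beta-ring genes and 5 of 6 ATPases fell, but 2 of 12 non-ATPase subunits (Psmd7 and Psmd14). Psma7 stood at 273 and 309 CPM with DMSO and at 32.6 and 20.1 with MG132 (log2 fold change -3.47 ± 0.40, edgeR adjusted p = 0.0041). Psmb3 stood at 122 and 186 and at 18.1 and 19.3 (-3.04 ± 0.32), and the ATPase gene Psmc2 at 306 and 320 and at 36.9 and 62.1 (-2.66 ± 0.31). In these genes both drug-treated libraries were below both vehicle libraries by a wide margin, beside 54.9% of all genes tested without overlap. Psmb6 fell from 164 and 183 to 36.7 and 26.4 CPM (-2.46 ± 0.34), Psme1 from 19.7 and 17.0 to 1.75 and 4.23 (-2.62 ± 0.52), and Psmb7 by 1.30 ± 0.23 on the log2 scale. Psmc1 (-1.88 ± 0.36), Psmd14 (-1.29 ± 0.26) and Psma3 (-1.10 ± 0.24) fell as well. Psmb5 was at 67.4 and 80.2 CPM with DMSO and 35.0 and 46.9 with MG132 (-0.85 ± 0.30, edgeR adjusted p = 0.122), and Psmd4 (-0.58 ± 0.32) and Psmd11 (-0.46 ± 0.28) were not called. Psme4 rose from 143 and 120 to 286 and 350 CPM (1.27 ± 0.27, adjusted p = 0.0277 in edgeR), a call that was lost when any of the 4 libraries was left out. The 10 members that kept their call in every such fit were Psma2, Psma5, Psma6, Psma7, Psmb2, Psmb3, Psmb6, Psmc2, Psmc5 and Psmc6. The count was lower without MG132 replicate 1 and without either DMSO library, as were the calls over all genes.

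Cycloheximide lowered 25 members in 4-cell embryos and raised no member in edgeR (2 at an unadjusted p under 0.05, 1 in DESeq2), beside 10.3% of all genes called lower and 8.77% higher. The medians were -1.59 for the members and 0.44 for all genes. The whole core barrel fell, 7 of 7 alpha-ring and 7 of 7 beta-ring genes, with 5 of 6 ATPases and 6 of 12 non-ATPase subunits. Psmd7, whose protein pairs with that of Psmd14 in the lid, went from 508 and 536 to 35.2 and 40.6 CPM (log2 fold change -3.78 ± 0.35, edgeR adjusted p = 0.000466). Psma7 went from 273 and 309 to 29.1 and 17.9 (-3.63 ± 0.40), Psma2 from 844 and 723 to 128 and 154 (-2.47 ± 0.25) and Psma6 from 1110 and 1145 to 175 and 236 (-2.46 ± 0.26). Each of these was several-fold lower in both treated libraries, where 70.3% of all genes tested did not overlap with DMSO. The catalytic genes fell too, Psmb6 by 2.34 ± 0.34, Psmb5 by 1.68 ± 0.30 and Psmb7 by 1.63 ± 0.23 on the log2 scale, with Psma3 (-2.0 ± 0.24), Psmd14 (-1.98 ± 0.26), Psmc1 (-1.80 ± 0.36), Psmd11 (-1.68 ± 0.29) and Psmd4 (-1.57 ± 0.33). The activators ran from -0.14 (Psme3) to 1.53 (Psme2, from 23.1 and 22.7 to 72.8 and 59.8 CPM, edgeR adjusted p = 0.0561) and were not called. Leaving out each library in turn kept 18 of the 25 calls. Other readouts moved alongside in both drug groups: the 2-cell markers summed to 203 and 226 gene CPM with MG132 and 393 and 707 with cycloheximide against 95.4 and 49.8 with DMSO. In the same order mitochondrial transcripts took 17.2 and 15.4%, 23.1 and 21.7%, and 14.6 and 11.4% of gene counts. Their part was not tested. Cumulus cell markers, with 4 to 7 of 10 detected and Amh, Fshr and Ptx3 at 0, summed to 422 and 432 gene CPM with DMSO, 80.4 and 119 with MG132 and 29.9 and 38.1 with cycloheximide. Nearly all of that sum with DMSO was Gja1, a gap junction gene, with 11144 and 9453 counts against 1355 and 1884 with MG132 and 35 and 70 with cycloheximide. Amhr2, the next most abundant marker in these libraries, had 354 and 578, 588 and 368, and 508 and 616 counts in the same order, with overlap between DMSO and both drugs.

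The 2 drugs differed from each other in 8 members of the 4-cell embryo, 4 higher and 4 lower with cycloheximide, against 4.51% of all genes called higher and 5.58% lower. The medians were -0.05 for the members and 0.20 for all genes. Psme1 stood at 30.5 and 17.8 CPM with cycloheximide and 1.75 and 4.23 with MG132 (log2 difference 3.02 ± 0.53, edgeR adjusted p = 0.0104), and its partner Psme2 at 72.8 and 59.8 and at 19.8 and 6.77 (2.32 ± 0.49). Psmb3 (1.94 ± 0.31) and Psmc3 (1.93 ± 0.37) were also higher with cycloheximide. Psmd7 (-2.42 ± 0.33), Adrm1 (-1.64 ± 0.42), Psmd11 (-1.22 ± 0.28) and Psma3 (-0.90 ± 0.24) were lower. Both subunits of the interferon-inducible cap were thus without overlap between the drugs, as were 59.6% of all genes tested. The calls of Psmb3, Psmd7 and Psme1 held whichever library was left out. The count was lower without cycloheximide replicate 1 and without MG132 replicate 2, as were the calls over all genes. It was 14 with DESeq2, beside 10.6% of all genes called higher and 9.36% lower.

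**Figure D4:**
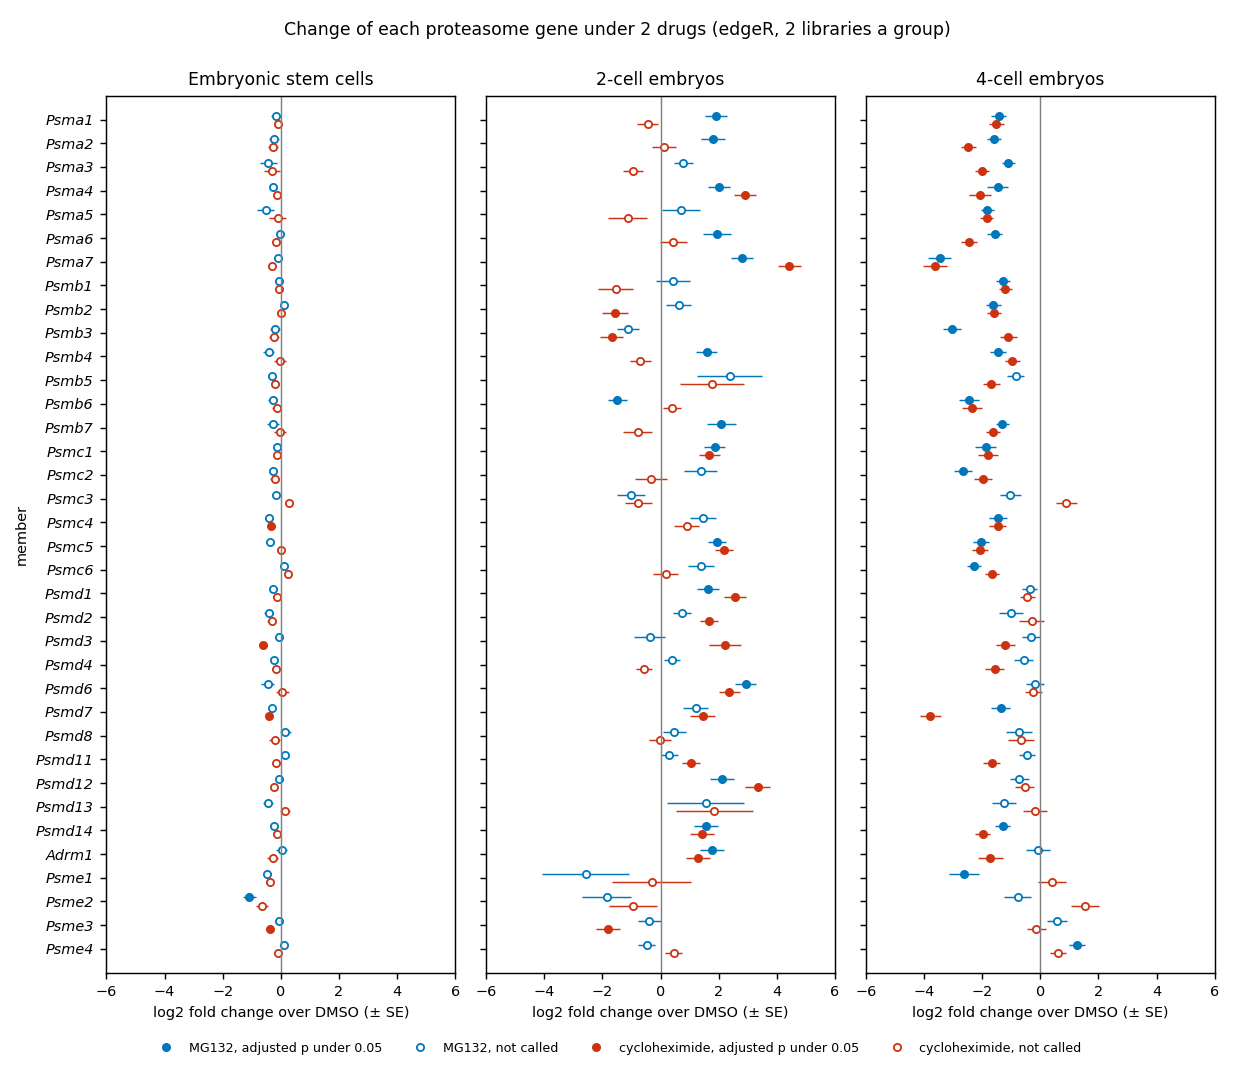
Log2 fold change over DMSO of each member (rows) with MG132 (blue) and cycloheximide (red) in stem cells, 2-cell and 4-cell embryos; points are edgeR estimates from 2 libraries a group, bars are ± 1 SE and filled points passed the adjusted p of 0.05. Stem cell points lie between -1.09 and 0.29, most 2-cell MG132 points are right of 0, and most 4-cell points of both drugs are left of it.

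The change of direction between the stages was tested as a difference of the drug effects over the 18 embryo libraries, each stage with its own vehicle. For MG132 the 4-cell effect was lower than the 2-cell effect in 22 members and higher in 1, when 4.49% of all genes were called lower and 6.73% higher. The median was -2.59 for the members and 0.42 for all genes. Psma7 differed by -6.27 ± 0.56 on the log2 scale (edgeR adjusted p = 1.74e-05), Psmc2 by -4.09 ± 0.75, Psmc5 by -4.01 ± 0.42, Psmc1 by -3.78 ± 0.57 and Psmc6 by -3.72 ± 0.55, and Psme4 by 1.73 ± 0.41 in the other direction. The catalytic genes Psmb7 (-3.44 ± 0.63) and Psmb5 (-3.27 ± 0.74) were called. Psmb6 (-0.99 ± 0.49, adjusted p = 0.214 in edgeR) was lower than vehicle in both stages and was not. The Psmb5 call is limited, because the 2-cell fit alone did not resolve its effect and gave a larger SE. The fit over both stages shares its spread with the better-filled 4-cell libraries. For cycloheximide 19 members had a lower effect at the 4-cell stage and 1 a higher one, against 6.65% of all genes called lower and 14.3% higher. The medians were -1.95 for the members and 1.25 for all genes. Psma7 (-7.99 ± 0.58), Psmd7 (-5.18 ± 0.58), Psma4 (-4.90 ± 0.58), Psmc5 (-4.20 ± 0.42) and Psmd12 (-3.83 ± 0.56) led, and Psme3 (1.72 ± 0.59) was the one higher. For either drug 17 of these calls held whichever library was left out; those of Psme4 and Psme3 did not. Per treatment, the ATPase ring gene Psmc5 shows the values behind such a difference: in gene CPM it was 44.1 and 37.8 with DMSO, 159 and 158 with MG132 and 119 and 131 with cycloheximide in 2-cell embryos, and 165 and 169, 47.8 and 48.2, and 65.7 and 53.9 in 4-cell embryos.

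In embryonic stem cells few members were called, and the 2 MG132 libraries stood apart from each other. MG132 replicate 2 had 3.21% mitochondrial counts against 1.73% in replicate 1 and 1.61% in both DMSO libraries, and its Psma3 level was 94.7 CPM against 197, 201 and 191. With both libraries, 1 member was called, Psme2. It stood at 44.4 and 44.7 CPM with DMSO and 26.4 and 15.5 with MG132 (log2 fold change -1.09 ± 0.22, edgeR adjusted p = 0.0432), beside 1.34% of all genes called lower and 1.9% called higher. The median was -0.25 for the members and -0.01 for all genes. Without MG132 replicate 1 the count was 29 (4 higher and 25 lower), but then 24.7% of all genes were called higher and 21.8% lower. Without replicate 2 it was 11 (2 higher and 9 lower), beside 10.7% and 14.2% of all genes. In both fits the lone library is assumed to vary like the other groups. Without either DMSO library Psme2 lost its call. The estimates of the other named members were small: Psmb5 -0.30 ± 0.12 (131 and 132 against 115 and 97.7 CPM), Psmb6 -0.28 ± 0.16, Psmb7 -0.27 ± 0.20, Psmd4 -0.23 ± 0.11, Psmd11 0.14 ± 0.13, Psmd14 -0.24 ± 0.13, Psma3 -0.43 ± 0.28, Psmc1 -0.13 ± 0.11, Psme1 -0.49 ± 0.12, Psme3 -0.05 ± 0.11 and Psme4 0.11 ± 0.11. At an unadjusted p under 0.05 edgeR gave 8 members lower and none higher, with no unadjusted share over all genes to set beside them. DESeq2 called 2 lower, beside 2.58% of all genes called higher and 2.24% lower. Of the 36 estimates 30 were below 0, but they pool 2 MG132 libraries that stood apart, so they do not show a uniform fall.

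Cycloheximide in stem cells lowered 4 of the 36 members, a share no larger than over all genes, of which 13.4% were called lower and 13.6% higher. The medians were -0.16 for the members and -0.04 for all genes. Psmd3 went from 403 and 364 to 263 and 244 CPM (log2 fold change -0.60 ± 0.13, edgeR adjusted p = 0.0144), Psmd7 from 306 and 283 to 230 and 216 (-0.40 ± 0.11), Psme3 from 235 and 220 to 177 and 174 (-0.38 ± 0.11) and Psmc4 from 217 and 203 to 172 and 159 (-0.35 ± 0.10). The groups did not overlap in these 4 genes, nor in 77.8% of all genes tested. None kept its call when any of the 4 libraries was left out, and calls over all genes were far fewer in those fits too. With the cycloheximide and DMSO libraries alone in the fit 20 members were called (3 higher and 17 lower), beside 28.7% of all genes called higher and 29.4% lower. Psmb5 (-0.19 ± 0.12), Psmb6 (-0.15 ± 0.16), Psmb7 (-0.03 ± 0.20), Psma3 (-0.30 ± 0.28), Psmd4 (-0.16 ± 0.11) and Psme2 (-0.65 ± 0.21, edgeR adjusted p = 0.0574) were not called. Cycloheximide against MG132 called 2 members, Psmc3 higher (0.46 ± 0.10, 332 and 308 against 229 and 236 CPM) and Psmd3 lower (-0.53 ± 0.13), beside 8.78% of all genes called higher and 8.7% lower. With DESeq2's size factors 3 were higher and 1 lower. Without cycloheximide replicate 1 or 2 both calls were lost, as was every other call among all genes. With only the libraries compared in the fit no member was called, beside 3.17% of all genes called higher and 2.59% lower. The count was 26 without MG132 replicate 1 (20 higher and 6 lower, beside 25.8% of all genes higher and 27.3% lower). Without MG132 replicate 2 it was 11 (3 higher and 8 lower, beside 18.6% and 18.9%). The 7 fibroblast markers, all with counts, summed to 1121 and 1367 gene CPM with DMSO, 654 and 627 with MG132 and 621 and 620 with cycloheximide, and their part in these differences was not tested. The lower sums came from the collagen genes Col1a1 (14443 and 17741 counts with DMSO, 8199 and 8270 with MG132, 8061 and 8421 with cycloheximide), Col1a2 and Col3a1. Pdgfrb had 513 and 626, 510 and 692, and 470 and 529 counts in the same order and Thy1 624 and 788, 563 and 1115, and 761 and 761. Dcn had 62 and 67, 28 and 32, and 95 and 124.

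The drug effects of stem cells and 2-cell embryos were compared over 14 libraries. For MG132, 14 members had a lower effect in stem cells and none was called higher in edgeR (1 at an unadjusted p under 0.05, 1 in DESeq2), beside 3.37% of all genes called lower and 3.7% higher. The medians were -1.58 for the members and 0.13 for all genes. Psmd6 differed by -3.39 ± 0.42 (edgeR adjusted p = 0.00165), Psma7 by -2.91 ± 0.44, Psmb5 by -2.69 ± 0.46, Psmb7 by -2.36 ± 0.57 and Psmc5 by -2.33 ± 0.35. This count was lower without any single stem cell MG132 or DMSO library, without 2-cell MG132 replicate 2 and without 2-cell DMSO replicate 1. Calls over all genes were fewer too without any of these stem cell libraries or 2-cell MG132 replicate 2. Psma7, Psmb5, Psmc5 and Psmd6 kept their calls throughout. Psmb5 was near the floor in 2-cell embryos, at 0.509 and 0.414 CPM with DMSO and 2.03 and 2.79 with MG132 (2-cell fit). The 2-cell fit alone did not call it and gave a larger SE. The fit over both systems shares its spread with the stem cell libraries, where Psmb5 was well counted, so its call is limited. For cycloheximide 14 members had a lower effect in stem cells, beside 8.31% of all genes called lower and 10.5% higher. None was called higher in edgeR (4 at an unadjusted p under 0.05, 3 in DESeq2). The medians were -0.54 for the members and 0.37 for all genes. The differences were led by Psma7 (-4.72 ± 0.45), Psmd12 (-3.56 ± 0.52), Psma4 (-3.01 ± 0.46), Psmd3 (-2.83 ± 0.68) and Psmd1 (-2.68 ± 0.42). Without stem cell cycloheximide replicate 1 or 2 that count was 7, and without DMSO replicate 1 or 2 it was 8. Library preparation and cell system changed together here and cannot be told apart.

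Aphidicolin and maternal age moved no member past the threshold. With aphidicolin in 2-cell embryos edgeR called 0 members (without adjustment, 6 were higher and 1 lower at p under 0.05, and DESeq2 called 2 higher), beside 0.00893% of all genes called higher and 0.192% lower. The estimates ran from -1.71 to 1.31 with a median of 0.30. In 4-cell embryos with aphidicolin edgeR and DESeq2 called 0 members and 0 had an unadjusted p under 0.05, with 0% of all genes called in either direction. The estimates ran from -0.67 to 0.72. The 2-cell embryos of 12-month females, which had no vehicle, gave 0 calls against DMSO embryos of young females (1 lower at an unadjusted p under 0.05 in edgeR, 0 in DESeq2), beside 0.469% of all genes called higher and 0.746% lower. Estimates there ran from -2.46, for Psmb5 at 0 and 4 counts against 16 and 12, to 2.51. The upper end was Psmd13, also near the floor, at 1.46 and 0.697 CPM against 0.0954 and 0.276 with DMSO. Maternal age and the vehicle cannot be told apart. In MII oocytes of 12 months against 8 weeks, 35 members were tested and edgeR called 0 (2 higher at an unadjusted p under 0.05, 0 in DESeq2), beside 0.272% of all genes called higher and 0.53% lower. The estimates ran from -0.60 to 1.42. Without MII 8-week replicate 1, 4 members were called there (3 higher and 1 lower), and the calls over all genes then came to 3.11% higher and 3.57% lower. With 2 libraries a group these fits do not show that the levels were alike.

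In growing oocytes with H3.3K4M, 6 members were higher and 1 lower than with H3.3WT, beside 8.64% of all genes called higher and 13.7% lower. The medians were 0.17 for the members and 0.00 for all genes. The ubiquitin receptor gene Adrm1 stood at 41.5 and 45.2 CPM with H3.3WT and at 75.9 and 72.6 with H3.3K4M (log2 fold change 0.78 ± 0.16, edgeR adjusted p = 0.00377). Psmd13 stood at 3.18 and 4.87 and at 7.59 and 7.15 (0.88 ± 0.24), Psmd7 at 25.6 and 32.5 and at 52.7 and 46.2 (0.77 ± 0.18), and Psmd3 (0.73 ± 0.22), Psmc3 (0.63 ± 0.16) and Psmc6 (0.53 ± 0.17) were also higher. All 6 belong to the regulatory particle, and none of the first 3 overlapped between the genotypes, nor did 60.3% of all genes tested. Psme4 was lower, at 45.8 and 31.6 CPM with H3.3WT and 17.8 and 26.8 with H3.3K4M (-0.79 ± 0.23). The core-particle genes Psmb5 (0.25 ± 0.18), Psmb6 (0.09 ± 0.17), Psmb7 (-0.07 ± 0.17) and Psma3 (-0.10 ± 0.16) were not called. Adrm1 alone kept its call whichever library was left out. Without H3.3WT replicate 1 no other member was called, and calls over all genes were fewer too. With the replicate number as a block 4 members were called (3 higher and 1 lower), beside 6.04% of all genes called higher and 12.3% lower. Psmc3 shares 215 exon bases with Slc39a13 and Psmd13 shares 342 with Sirt3, both on the opposite strand.

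Genes that assemble, assist or supply the proteasome were followed as lists. Beside the counts that follow, 19.6% of all genes were called higher and 29.4% lower between the vehicle stages. With MG132 the shares, higher and lower in that order, were 5.1 and 4.68% in 2-cell and 3.06 and 4.33% in 4-cell embryos. With cycloheximide they were 11 and 13% in 2-cell and 8.77 and 10.3% in 4-cell embryos. Among the 8 assembly chaperones with counts, 4 rose and 2 fell from the vehicle 2-cell to the 4-cell embryo in edgeR, led by Psmg3 (5.29 ± 0.62) and Pomp (3.12 ± 0.38), which carry the core barrel's assembly, and Psmg2 (2.44 ± 0.85). In 4-cell embryos MG132 lowered 3 of the 8 (Psmg3 -3.82, Psmd10 -2.01 and Pomp -1.55 on the log2 scale) and cycloheximide 2 (Psmg3 -2.76 and Pomp -2.01). Of 9 proteasome-associated factors, 6 rose and 2 fell between the vehicle stages, with the small lid subunit gene Sem1 (4.65), Uchl5 (2.88) and Usp14 (2.40), the latter pair encoding deubiquitinases. MG132 in 4-cell embryos lowered Sem1 (-1.63), Uchl5 (-1.40) and Usp14 (-1.27), and cycloheximide lowered 6 of the 9, Sem1 (-3.21), Zfand5 (-1.89) and Uchl5 (-1.60) most. In 2-cell embryos Usp14 was higher with MG132 (1.48) and with cycloheximide (2.63), while Sem1 was lower with MG132 (-1.30) and the inhibitor gene Psmf1 lower with cycloheximide (-3.36).

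Of 9 transcription regulators of the proteasome, Ddi2, which encodes the protease that activates NRF1, was the one called with MG132 in 2-cell embryos (1.22), and it was also higher there with cycloheximide (2.02). In 4-cell embryos the called regulators were Mafk (2.37) with MG132, and Mafk (1.62) and Ddi2 (-1.33) with cycloheximide. In stem cells Maff was called with MG132 (0.58), and 3 regulators were higher (Nfe2l3 1.63, Maff 0.85 and Ngly1 0.73) and 2 lower with cycloheximide. Of all genes there, 1.9% were called higher and 1.34% lower with MG132, and 13.6 and 13.4% with cycloheximide. The 9 genes of the proteotoxic stress list were called as follows: 5 rose with MG132 in 4-cell embryos, led by the heat shock genes Hspa1b (7.20), Hspa1a (6.50) and Dnajb1 (4.26), while in 2-cell embryos Hsp90aa1 was higher (2.54) and Bag3 lower (-7.50). Reads of Hspa1a and Hspa1b, which are near-identical, may have been split between them, and Psmb5, Psmb6 and Psmb7 likewise have like-named pseudogenes in the annotation. With cycloheximide 6 of the 9 were lower than with MG132 in 4-cell embryos, led by Dnajb1 (-4.15), Hspa8 (-4.06) and Hspa1b (-2.79). Between these 2 drugs 5.58% of all genes were called lower and 4.51% higher. All genes of these lists were called in the same edgeR fits as the members.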

How the data were processed

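RNA-seq gene counts of 32 libraries in 16 groups were analysed. Per the submitters' processing notes reads were trimmed with cutadapt 1.16 and aligned with STAR to mm10; the counting tool and its strand and multi-mapping settings were not given in the sources used here. The deposited tables hold raw counts per Ensembl gene (55335 rows) and per repeat family (1153 rows). Symbols came from GENCODE, matched without the version (55154 rows matched).

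The members and all lists were chosen with earlier results of these data known. Each comparison was fitted on counts with edgeR 4.0.16 (quasi-likelihood test, robust, TMM scaling over genes and repeats; filterByExpr with a minimum count of 10 and total of 15) in R 4.3.3, with Benjamini-Hochberg adjustment over all genes tested and a threshold of 0.05. Fits held all libraries of a stage, or of the stages compared, so that groups shared an estimate of spread. Repeats entered library sizes only. Standard errors are those of the log2 fold change. The scripts were tested on simulated counts with a small set of changed genes. Of 4-fold changes, 94.0% were called in stem cells, 14.1% in 2-cell and 16.1% in 4-cell embryos. Of 2-fold changes, 72.3, 3.23 and 0% were called in the same order. A member not called in embryos is therefore not shown to be unchanged, and counts of calls in stem cells and embryos are not on one footing. Members are named by a rule: per comparison up to 5 called members with the largest change in each direction, and Psmb5, Psmb6, Psmb7, Psmd4, Psmd11, Psmd14, Psma3, Psmc1 and Psme1 to Psme4; of the other lists up to 3 called genes. A further gene list is not reported here. Where no member was called, ranges are given. Other genes with values (Psmc5, and members named to complete a count) were chosen after their values were seen.

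Same-numbered libraries deviated together among the 2-cell drug and vehicle groups (correlations of 0.208 to 0.435 in 6 pairs), so their numbers were taken to pair them. This comes from the data, since the labels do not say what the number marks. The main fits held no replicate term, so calls, SEs and p-values not marked as blocked ignore this pairing. It entered only the replicate block, an alternative fit. Alternatives were DESeq2 1.42.0 and its size factors, library sizes from genes, other low-count filters, the replicate block, only the libraries compared, and each library left out.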

Additional observations from a re-analysis of the deposited data

Results flagged for a closer look

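The effect of a drug on the proteasome genes differed between embryo stages or cell systems by a test of the difference itself in 4 cases. Between 4-cell and 2-cell embryos edgeR called 23 members for MG132, led by Psma7 (-6.27 on the log2 scale) and Psmc2 (-4.09). Of all genes, 6.73% were called higher and 4.49% lower there. For cycloheximide it called 20 members, led by Psma7 (-7.99) and Psmd7 (-5.18), beside 14.3% of all genes higher and 6.65% lower. Between stem cells and 2-cell embryos it called 14 members for MG132, led by Psmd6 (-3.39) and Psma7 (-2.91). Of all genes, 3.7% were called higher and 3.37% lower there. For cycloheximide it called 14 members, led by Psma7 (-4.72) and Psmd12 (-3.56), beside 10.5% of all genes higher and 8.31% lower. Both of these counts fell when any stem cell library of the contrast was left out. Library preparation and cell system changed together between stem cells and 2-cell embryos and cannot be told apart. The 2 drugs share the vehicle libraries of each system.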

How the results depend on the processing

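With 2 libraries a group, counts of called members depended on the fit in stem cells most of all. Of 247 alternative settings, 194 gave a count within 1.5 times that reported and 53 did not. No called member changed direction in any alternative (over all alternatives together calls were kept 2524 times and lost 388 times; calls gained are not in this tally).

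For MG132 in stem cells the count was 2 with DESeq2 and with no low-count filter, and 0 with a filter of 5 CPM in 2 libraries, with the replicate block and with only the compared libraries. For cycloheximide in stem cells it was 2 with DESeq2's size factors and 20 with only the compared libraries. For cycloheximide against MG132 it was 4 in stem cells with DESeq2's size factors, DESeq2's test or no filter and 0 with only the compared libraries; in 2-cell embryos it was 19 with DESeq2's test, 16 with no filter, 17 with the 5 CPM filter and 0 with only the compared libraries; and in 4-cell embryos it was 14 with DESeq2's test. DESeq2 called 2 members for aphidicolin in 2-cell embryos. In growing oocytes the replicate block gave 4 and the crossed block 14, the latter beside 16.8% of all genes called higher and 20.4% lower. The cause of these moves was not tested.

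Leaving out each library in turn gave 0 to 29 members for MG132, 0 for cycloheximide and 0 to 26 for cycloheximide against MG132 in stem cells. In 2-cell embryos the ranges were 5 to 14, 12 to 13 and 2 to 10 in the same order, and in 4-cell embryos 11 to 17, 18 to 23 and 3 to 9. They were 0 to 4 for age in MII oocytes, 1 to 8 for H3.3K4M, 12 to 17 for the 8-week and 7 to 10 for the 12-month step to the 2-cell embryo, and 27 to 29 for the step to the 4-cell embryo. The differences of effects gave 18 to 22 (MG132) and 17 to 19 (cycloheximide) between embryo stages, and 4 to 16 and 7 to 16 between stem cells and 2-cell embryos. Calls over all genes moved as well when a library was left out of an MG132 or cycloheximide comparison within a stage or in stem cells. Outside the results given beside their blocked value, the replicate block moved no count by over 1.5 times. In the other stages the numbers were not taken as pairs: correlations were 0.048 to 0.181 in stem cells, -0.036 to 0.144 in 4-cell embryos, -0.180 in MII and -0.492 in growing oocytes. Low counts limit Psmb5 and Psmd13 in MII oocytes and 2-cell embryos, and Psme1 in all oocytes and 2-cell embryos.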
